A study of Mus musculus with 12 samples.

Results

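The 7 genes described here are 3 embryonic globin chains (*Hbb-y*, *Hbb-bh1* and *Hba-x*), the adult alpha globin *Hba-a1*, and the erythroid genes *Alas2*, *Klf1* and *Slc4a1*. They were chosen by name, with earlier results of these arrays known, and every probe that the array's annotation gives one of these names was taken. That gave 8 probes, of 41174 probes and 29182 genes on the array. The series measured whole mouse gonads at E14.5 on 12 single-colour arrays, 3 in each of 4 groups, and each array held RNA from a single pair of gonads. Tamoxifen had been given to all 4 groups, at E9.5 and again at E10.5. The control testes were *Smad4* Flox/+ StellaMerCreMer *Stra8*+/-. Control ovary 1 had that same genotype, control ovary 2 was *Smad4* Flox/+ *Stra8*+/-, and control ovary 3 was *Smad4* Flox/Flox *Stra8*+/-, so that the last pair carried no Cre. *Smad4 (Stella)* ovaries were *Smad4* flox/flox MerCreMer *Stra8*+/-, and double mutant (DKO) ovaries were *Smad4* flox/flox MerCreMer *Stra8*-/-. All 12 samples therefore carried at least 1 disrupted *Stra8* allele. The tamoxifen-dependent Cre is driven by *Stella* sequences that are active in germ cells, and the background was mixed.

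Red blood cells reach the fetal gonad through its vessels. Early in development the yolk sac releases large primitive erythroid cells that make the embryonic beta-like chains (*Hbb-y*, also called epsilon-y, and *Hbb-bh1*, beta-h1) and the embryonic alpha-like chain zeta (*Hba-x*). From mid-gestation the fetal liver releases definitive erythroid cells, which make the adult chains, and the share of embryonic chains in the blood falls. Adult alpha globin is made in both lineages. *Alas2* encodes the erythroid form of the first enzyme of heme synthesis, *Klf1* an erythroid transcription factor that binds CACCC boxes in globin promoters, and *Slc4a1* band 3, the chloride/bicarbonate exchanger of the red cell membrane.

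The probes of the globin chains are shown because they fix what each value counts, as the globin genes of a cluster resemble each other. Coordinates are those of the array's annotation, build mm9, and all the probes are 60 bases long. The *Hbb-y* probe lies at chr7:111001412-111001471 on the minus strand, the *Hbb-bh1* probes at chr7:110990307-110990366 and chr7:110990327-110990386 on the minus strand, and the *Hba-x* probe at chr11:32177668-32177727 on the plus strand. The *Hba-a1* probe covers 182 bases of the genome, chr11:32183775-32183956 on the plus strand, although it is 60 bases long. Each is annotated to a transcript of its gene. Capitals mark, in the *Hbb-bh1* probes, the 40 bases that both share and, in the *Hba-a1* probe, the 27 bases that are identical over the 30 bases it shares with the array's *Hba-a2* probe.
Hbb-y probe: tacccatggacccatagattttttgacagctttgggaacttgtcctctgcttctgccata
Hbb-bh1 probe 1: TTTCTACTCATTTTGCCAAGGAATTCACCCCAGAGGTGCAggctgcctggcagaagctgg
Hbb-bh1 probe 2: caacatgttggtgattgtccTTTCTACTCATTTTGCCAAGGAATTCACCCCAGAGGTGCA
Hba-x probe: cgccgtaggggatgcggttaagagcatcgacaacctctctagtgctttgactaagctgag
Hba-a1 probe: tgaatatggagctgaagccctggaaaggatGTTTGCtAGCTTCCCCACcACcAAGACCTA
The *Hba-a1* probe is listed by the array for 2 transcripts, those of *Hba-a1* and *Hba-a2*, so its value is uncertain as to which adult alpha gene it reads. The *Hbb-bh1* probes overlap and are not independent readings. *Alas2* (chrX:147004993-147005052, plus strand), *Klf1* (chr8:87428881-87428940, plus strand) and *Slc4a1* (chr11:102210256-102210315, minus strand) had 1 probe each.

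Promoter sequences of 5 of the 7 genes were found in a RefSeq-derived table, build GRCm38.p6, and the 250 bases before the gene's start were searched on both strands for the GATA-factor motifs AGATAA and TGATAA, for CACCC and for TATAAA. All 5 windows (*Hbb-y*, *Hba-x*, *Hba-a1*, *Alas2* and *Klf1*) held a GATA motif together with CACCC, and 7.11% of the 32851 promoter windows of the table did so. TGATAA was found in 4 of the 5 (7.94% of all windows) and AGATAA in *Alas2* (9.99%). CACCC was found in all 5 (52.0%), 3 times in *Alas2*. TATAAA was found in 2, *Hba-x* and *Alas2* (12.4%). The windows of the embryonic and the adult alpha chain and of *Klf1* are printed as examples of an embryonic chain, an adult chain and a transcription factor. They lie at chr11:32276350-32276599, chr11:32283422-32283671 and chr8:84901732-84901981, all on the plus strand, with the motif matches in capitals.
Hba-x promoter: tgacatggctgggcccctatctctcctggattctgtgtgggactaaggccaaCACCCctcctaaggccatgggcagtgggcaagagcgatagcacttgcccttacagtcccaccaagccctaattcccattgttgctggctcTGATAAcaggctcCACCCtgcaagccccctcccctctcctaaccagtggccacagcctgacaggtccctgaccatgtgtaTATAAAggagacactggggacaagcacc
Hba-a1 promoter: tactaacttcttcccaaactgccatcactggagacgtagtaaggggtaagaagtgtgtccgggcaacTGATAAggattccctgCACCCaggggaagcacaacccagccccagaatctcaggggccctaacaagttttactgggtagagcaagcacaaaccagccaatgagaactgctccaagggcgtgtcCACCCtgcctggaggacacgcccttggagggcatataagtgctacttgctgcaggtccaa
Klf1 promoter: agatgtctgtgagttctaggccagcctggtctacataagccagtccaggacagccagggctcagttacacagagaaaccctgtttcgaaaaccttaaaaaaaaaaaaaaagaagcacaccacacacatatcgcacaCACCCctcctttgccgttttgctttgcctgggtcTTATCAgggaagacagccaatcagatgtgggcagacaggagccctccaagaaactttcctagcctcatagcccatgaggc
A match is a run of letters and not evidence of binding.

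Levels are log2 of the scanner software's processed signal minus log2 of that array's 75th percentile over all probes that are not controls. A value of 0 is therefore the 75th percentile of the array, and a step of 1 is a 2-fold change. The 75th percentile was 476 to 997 intensity units, and 58.8% to 70.5% of probes were well above background per array. No spot was saturated. A gene was called when limma gave a Benjamini-Hochberg adjusted p below 0.05 over the 18844 genes that passed the filter on dim probes, together with at least a 1.5-fold change. All 8 probes were well above background on every array with a usable spot. The one spot of *Hbb-y* on control ovary 2 was marked by the scanner software as unevenly lit and was left out, so the control mean of *Hbb-y* rests on 2 arrays. Replicates correlated at 0.976 to 0.994 over all genes. The labels were checked against gonadal genes: *Sox9*, which drives testis formation, was at -0.14 to 0.10 in the testes and -3.58 to -2.78 in the 9 ovaries. *Foxl2* was at -4.09 to -3.33 in the ovaries and -6.43 to -6.06 in the testes, where it was not well above background. The *Stra8* probe read 5.28 to 5.61 in the DKO ovaries and 6.16 to 6.71 in the other ovaries, and *Smad4* read 1.96 to 2.42 on all 12 arrays. Whether these probes lie inside the deleted parts is not given in the sources used here.

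Among the embryonic beta-like chains, *Hbb-y* stood at 5.76 and 5.48 in control ovaries 1 and 3. It was at 4.62, 4.70 and 4.88 in the 3 control testes. In *Smad4 (Stella)* ovaries it was at 4.52, 4.98 and 4.59, and in DKO ovaries at 4.27, 4.41 and 4.75. Both usable control ovaries were thus above all 9 other arrays, and the other 3 groups overlapped each other. The means were 5.62 ± 0.19 (SD, n = 2) in control ovaries, 4.73 ± 0.14 (n = 3) in testes, 4.70 ± 0.25 (n = 3) in *Smad4 (Stella)* and 4.48 ± 0.24 (n = 3) in DKO ovaries. Against control ovaries this was a difference of -0.89 (SE 0.19), or 1.85-fold, for testes, -0.93 (SE 0.19) for *Smad4 (Stella)* and -1.15 (SE 0.19), or 2.21-fold, for DKO ovaries. With the marked spot kept, control ovary 2 would have read 3.64, the lowest *Hbb-y* value of the series, and *Hbb-y* was called in no comparison.

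*Hbb-bh1*, the other embryonic beta-like chain, was at 1.57, 1.24 and 1.96 in control ovaries. The testes read 0.93, 0.63 and 0.58. *Smad4 (Stella)* ovaries read 1.08, 1.47 and 1.04, and DKO ovaries 0.76, 1.18 and 1.11. All testes were below all control ovaries and so were all DKO ovaries, while *Smad4 (Stella)* ovary 2 lay among the control ovaries. The means were 1.59 ± 0.36 in control ovaries, 1.20 ± 0.24 in *Smad4 (Stella)*, 1.02 ± 0.22 in DKO ovaries and 0.71 ± 0.19 in testes (SD, n = 3 each). The testes differed from control ovaries by -0.87 (SE 0.20), the *Smad4 (Stella)* ovaries by -0.39 (SE 0.20) and the DKO ovaries by -0.57 (SE 0.20).

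The embryonic alpha-like chain *Hba-x* was at 2.52, 2.48 and 2.80 in control ovaries and at 2.20, 2.04 and 2.19 in testes. *Smad4 (Stella)* ovaries read 2.41, 2.52 and 2.15. DKO ovaries read 1.48, 2.31 and 2.64. DKO ovary 1 was the lowest of the 12 arrays and DKO ovary 3 lay among the control ovaries, so the DKO mean of 2.14 ± 0.60 (SD, n = 3) had the widest spread of the 4 groups. The control ovaries were at 2.60 ± 0.17, the *Smad4 (Stella)* ovaries at 2.36 ± 0.19 and the testes at 2.14 ± 0.09. The differences from control ovaries were -0.46 (SE 0.25) for testes, -0.24 (SE 0.25) for *Smad4 (Stella)* and -0.46 (SE 0.25) for DKO ovaries. Without DKO ovary 1 the DKO difference was -0.13.

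*Hba-a1*, the adult alpha chain, was at 8.05, 8.02 and 8.38 in control ovaries and at 7.58, 7.43 and 7.66 in testes. *Smad4 (Stella)* ovaries read 7.58, 8.02 and 7.80. DKO ovaries read 7.64, 7.71 and 7.75. All 9 arrays of the other groups were below the lowest control ovary, with *Smad4 (Stella)* ovary 2 next to it. The means were 8.15 ± 0.20 in control ovaries, 7.80 ± 0.22 in *Smad4 (Stella)*, 7.70 ± 0.05 in DKO ovaries and 7.56 ± 0.12 in testes. The differences from control ovaries were -0.60 (SE 0.14), or 1.51-fold, for testes, -0.35 (SE 0.14) for *Smad4 (Stella)* and -0.46 (SE 0.14) for DKO ovaries. *Hba-a2* and the adult beta gene, whose several probes carry the current name *Hbb-bt*, cannot be told apart from their near-identical copies. *Hba-a2* differed from control ovaries by -0.54 (SE 0.15) in testes, -0.42 (SE 0.15) in *Smad4 (Stella)* and -0.47 (SE 0.15) in DKO ovaries. *Hbb-bt* differed by -0.54 (SE 0.14), -0.33 (SE 0.14) and -0.36 (SE 0.14) in the same order. Neither passed the 1.5-fold threshold in these comparisons.

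Relative to *Hba-a1* on the same array, and with the control ovary mean set to 0, *Hba-x* ranged from 0.08 to 0.17 in testes and *Hbb-bh1* from -0.51 to -0.09. In DKO ovaries the same difference for *Hba-x* was -0.61 in ovary 1, 0.15 in ovary 2 and 0.45 in ovary 3. The control ovaries themselves ran from -0.03 to 0.02 for *Hba-x* and from -0.22 to 0.14 for *Hbb-bh1*. For *Hbb-y* the 2 usable control ovaries were at 0.30 and -0.30, and the testes at -0.37, -0.13 and -0.18, so these groups overlapped. *Smad4 (Stella)* ovaries were at -0.62 to -0.44 and DKO ovaries at -0.77 to -0.40 for *Hbb-y*, below both control ovaries. The testes were thus above the control ovaries for *Hba-x* by this measure, and 2 of the 3 were below them for *Hbb-bh1*.

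*Alas2*, for heme synthesis, was at 3.20, 3.42 and 3.74 in control ovaries and at 2.73, 2.85 and 3.10 in testes. *Smad4 (Stella)* ovaries read 2.87, 3.29 and 3.12. DKO ovaries read 2.74, 3.19 and 2.91. The testes and DKO ovaries lay below all control ovaries, while *Smad4 (Stella)* ovary 2 lay among them. The differences from the control mean of 3.45 ± 0.27 were -0.56 (SE 0.18), -0.36 (SE 0.18) and -0.50 (SE 0.18) for testes, *Smad4 (Stella)* and DKO ovaries.

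*Slc4a1*, the band 3 gene, was at 1.08, 1.51 and 1.55 in control ovaries and at -0.02, 0.41 and 0.43 in testes. *Smad4 (Stella)* ovaries read 0.89, 1.83 and 0.61. DKO ovaries read 0.99, 1.06 and 0.88. All testes were below all 9 ovaries, and *Smad4 (Stella)* ovary 2 was the highest of the 12 arrays. The means were 1.38 ± 0.26 in control ovaries, 1.11 ± 0.64 in *Smad4 (Stella)*, 0.98 ± 0.09 in DKO ovaries and 0.27 ± 0.25 in testes. The differences from control ovaries were -1.11 (SE 0.28), or 2.15-fold, for testes, -0.27 (SE 0.28) for *Smad4 (Stella)* and -0.40 (SE 0.28) for DKO ovaries.

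*Klf1*, the transcription factor, was at -0.60, -2.06 and -1.91 in control ovaries and at -3.52, -2.50 and -3.06 in testes. *Smad4 (Stella)* ovaries read -2.64, -0.91 and -3.58. DKO ovaries read -0.52, -2.88 and -2.22. The spread between replicates was the widest of the 7 genes, with a within-group SD of 1.03 against 0.16 for *Hba-a1*, and 1 array in each ovary group stood apart as high. From the lowest to the highest of the 12 arrays *Klf1* spanned 3.05, against 0.96 for *Hba-a1*. The means were -1.52 ± 0.81 in control ovaries, -2.37 ± 1.36 in *Smad4 (Stella)*, -1.88 ± 1.22 in DKO ovaries and -3.03 ± 0.51 in testes. The testes lay below all control ovaries by a mean of -1.50 (SE 0.74), and the 3 ovary groups overlapped. The signal itself was 54.3 to 416 intensity units, against 107796 to 202301 for *Hba-a1*, and was well above background on all 12 arrays.

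**Figure D1:**
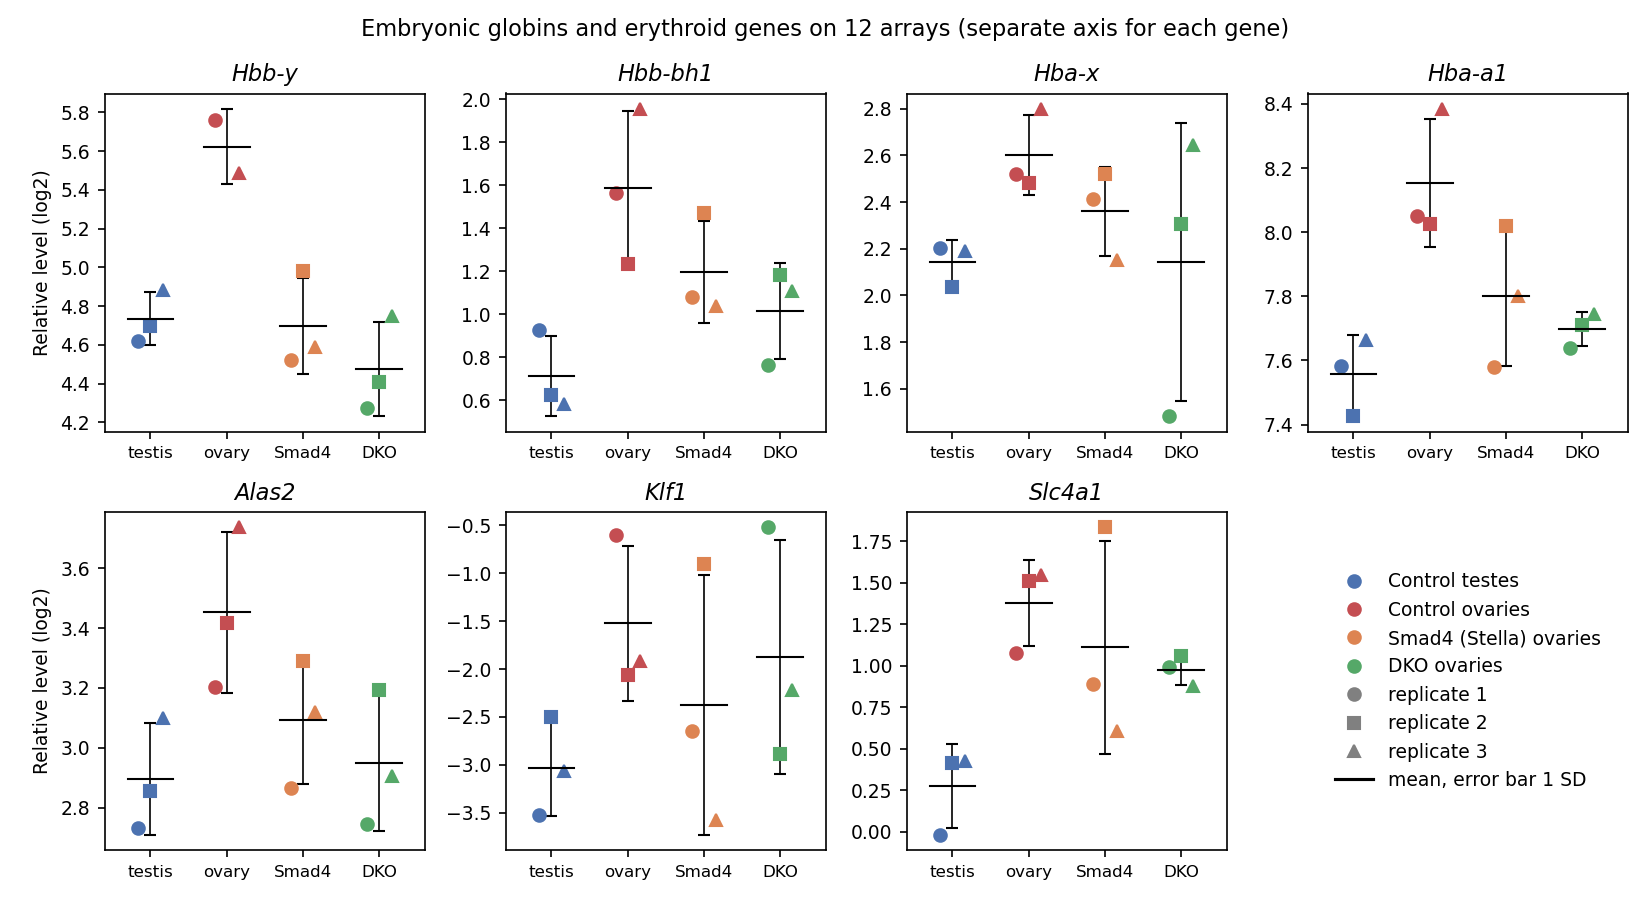
Relative level of each of the 7 genes (log2, 0 = 75th percentile of the array) on the 12 arrays. Each point is an array, marker shapes give the replicate, lines and error bars give the group mean and SD, and each gene has its own axis. *Hbb-y* has 2 control ovaries because 1 spot was left out. The control ovaries have the highest group mean for the globin chains and *Alas2*, but mutant arrays lie among them for *Hbb-bh1*, *Hba-x* and *Alas2*. For *Klf1* 1 array of each ovary group is high.

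Taken by comparison, the mean of all 7 genes was lower in control testes than in control ovaries, with differences from -0.46 for *Hba-x* to -1.50 for *Klf1* and a median of -0.87, against 0.017 over all genes. The arrays did not overlap for any of the 7, which 28.5% of all genes shared in that direction. *Hbb-y*, *Hbb-bh1*, *Hba-a1* and *Slc4a1* were called lower, 4 of the 7, where 16.8% of all genes were called lower. The 7 genes were chosen with this contrast known, and nothing is read from that count. All 7 were also lower in testes under each scaling between arrays that was tried. All 3 testes shared a slide with control ovary 1, and within that slide the differences were -1.03 for *Hbb-y*, -0.85 for *Hbb-bh1*, -0.38 for *Hba-x*, -0.49 for *Hba-a1*, -0.31 for *Alas2*, -2.43 for *Klf1* and -0.80 for *Slc4a1*. With the slide as a block all 7 stayed lower, 6 of them within 1 within-group SD of the value without a block, and 1 of the 7 was called. The share of all genes called with that block is not given here, so nothing is read from this count either. In whole gonads fewer red cells and less RNA per red cell cannot be told apart.

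*Smad4 (Stella)* ovaries had lower means than control ovaries for all 7 genes, with a median of -0.36 (all genes -0.025), but with the deposited values taken without scaling between arrays 2 of the 7 were lower. Leaving out the scaling moved the median of all genes to 0.40, and all 7 stayed below that, from -0.42 (*Klf1*) to 0.19 (*Hba-x*). None was called, where 0.138% of all genes were called lower, and the arrays of 2 of the 7, *Hbb-y* and *Hba-a1*, did not overlap (15.6% of all genes). These groups share no slide, so no within-slide value exists, and 2 of the 3 control ovaries lacked Cre. DKO ovaries also had lower means than control ovaries for all 7, with a median of -0.46 (all genes 0.0034), also under each scaling. *Hbb-y* was called, 1 of the 7, where 7.99% of all genes were called lower. The arrays of 5 of the 7, all but *Hba-x* and *Klf1*, did not overlap (16.7% of all genes). Within the slide that held control ovaries 2 and 3 and DKO ovaries 1 and 2, the differences were -1.15 for *Hbb-y*, -0.63 for *Hbb-bh1*, -0.75 for *Hba-x*, -0.53 for *Hba-a1*, -0.61 for *Alas2*, -0.50 for *Slc4a1* and 0.29 for *Klf1*, so that *Klf1* turned. The *Hbb-y* value there rests on control ovary 3 alone, as the spot of control ovary 2 was left out. The 3 comparisons share the control ovaries.

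Between DKO and *Smad4 (Stella)* ovaries, which differ in *Stra8*, 6 of the 7 means were lower in DKO and *Klf1* was higher by 0.50 (SE 0.74). The median was -0.14 and the *Hba-a1* difference -0.10 (SE 0.14). None of the 7 was called, where 4.08% of all genes were called lower, and the arrays overlapped for every one. Within the slide that held the 3 *Smad4 (Stella)* ovaries and DKO ovary 3 the differences were between -0.23 (*Slc4a1*) and 0.28 (*Hba-x*).

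**Figure D2:**
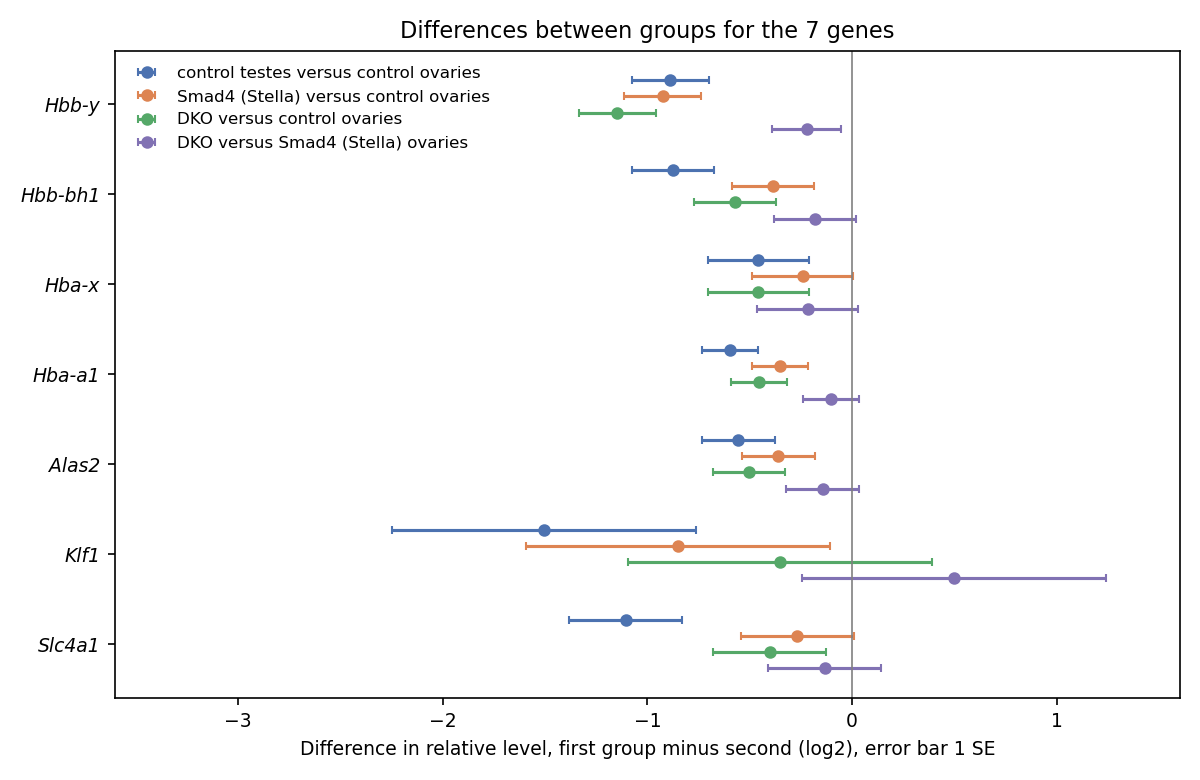
Difference in relative level (log2, first group minus second) for the 7 genes in the 4 comparisons, with 1 SE from the limma fit over 12 arrays. Points against control ovaries lie left of 0 for all 7 genes, although for *Smad4 (Stella)* ovaries 2 of the 7 were lower with unscaled values, where the median of all genes was 0.40, and the *Klf1* bars are the longest, with an SE of 0.74.

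To place these genes among other red cell genes, 5 further lists were examined: other globin genes and the globin chaperone, erythroid transcription factors, red cell membrane proteins, red cell enzymes and differentiation genes, and genes of heme and iron handling. Of their 58 genes on the array, 56 passed the filter on dim probes. In testes 21 of the 56 were lower than in control ovaries and 3 were higher by limma's adjusted p and fold threshold. Over all genes 16.8% were lower and 17.2% higher. The median difference of the 56 was -0.57 and that of all genes 0.017.

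The membrane list had 9 of 17 genes lower and 1 higher. Among the skeleton genes *Epb42* (a band 3 partner) differed by -1.32, *Epb41* by -0.89 and *Add2* (beta adducin) by -0.69. The surface proteins *Rhag* (Rh-associated glycoprotein), *Kel* and *Xk* (the Kell blood group complex) and the water channel *Aqp1* differed by -0.73 (*Aqp1*) to -1.69 (*Rhag*, well above background on 10 of the 12 arrays). *Sptb*, beta spectrin, went the other way and was higher by 1.73 (SE 0.29).

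The enzyme and differentiation list had 6 of 12 genes lower and none higher. The tetraspanin *Tspan33* read 0.16, 0.09 and -0.02 in control ovaries and -1.97, -1.68 and -2.02 in testes, a difference of -1.97 (SE 0.14, limma adjusted p = 1.9e-06). *Hemgn* (hemogen) differed by -2.07 (SE 0.61), *Car2* (carbonic anhydrase) by -1.49 (SE 0.23), *Trim10* by -1.17 (SE 0.22) and *Tspo2* by -1.41 (SE 0.45). *Tspo2* read -1.74, -1.59 and 0.34 in control ovaries, and its difference was -0.74 without control ovary 3 and -0.67 within the slide shared with control ovary 1.

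Of the other globin genes *Ahsp*, which binds free alpha chains, differed by -1.06 (SE 0.26), and the other 4 tested were not called. Of 9 transcription factor genes *Gata1* differed by -0.93 (SE 0.25) and *Lmo2* by -0.70 (SE 0.17), while *Nfe2* was higher by 1.20 (SE 0.30) and the corepressor gene *Cbfa2t3* by 1.33 (SE 0.16). Of 13 heme and iron genes the transferrin receptor *Tfrc*, through which erythroblasts take up iron, differed by -1.60 (SE 0.17), the iron importer *Slc11a2* by -0.60 (SE 0.13) and the mitochondrial iron importer *Slc25a37* by -0.65 (SE 0.21). *Tfrc* is also used by other dividing cells. Within the slide shared with control ovary 1, all 24 called genes kept their direction, with *Slc25a37* at -0.24. With the slide as a block 15 of the 56 were called, 12 lower and 3 higher, and the share of all genes called with that block is not given here. With each array of these groups left out in turn, *Add2*, *Aqp1*, *Hemgn*, *Slc11a2*, *Slc25a37* and *Tspo2* were each not called at least once.

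In *Smad4 (Stella)* ovaries none of the 56 was called by limma, where 0.271% of all genes were called either way. Without *Smad4 (Stella)* ovary 2, 2 genes were called lower, *Ahsp* among them, and without control ovary 3, *Tspo2* was called higher. At an unadjusted p below 0.05 there were 13, 11 of them lower, and the per-gene test named in the methods, with the same adjustment, called 0. In DKO ovaries 2 of the 56 were called against control ovaries, both lower and *Tfrc* among them, where 7.99% of all genes were lower. *Tfrc* read 0.43, 0.56 and 0.59 against 1.56, 1.20 and 0.81 in control ovaries, a difference of -0.66 (SE 0.17, limma adjusted p = 0.019). All DKO arrays were below all control ovaries for it. *Tfrc* was not called without control ovary 1, control ovary 2 or DKO ovary 1. Of the 56 genes, 1 was called without control ovary 2, 4 without control ovary 1 (3 lower, and *Alad* higher) and 4 without control ovary 3 (3 lower, *Tfrc* and *Tspan33* among them, and *Tspo2* higher). Between DKO and *Smad4 (Stella)* ovaries 0 of the 56 were called by limma (8.46% of all genes) and by the methods' test, with 2 at an unadjusted p below 0.05.

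Within the mutant groups the highest array was often the same one from gene to gene. *Smad4 (Stella)* ovary 2 was the highest of its 3 arrays for 46 of the 56 other erythroid genes (82.1%) and for all 6 of the 7 genes that had a value on every array, against 31.6% of all genes. DKO ovary 1 was the highest of its 3 for 34 of the 56 (60.7%, all genes 38.9%) but the lowest for 4 of those 6. Among the control ovaries the 56 were spread over the replicates, with 22, 17 and 17 highest on ovaries 1, 2 and 3, but control ovary 3 was the highest for 5 of the 6 and for 4 of the 5 other globin genes (all genes 29.7%).

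*Klf1* varied little with *Hba-a1* in this spread. With each group's mean taken off, the correlation of *Klf1* with the other members over the 12 arrays ran from -0.35 (*Hba-x*) to 0.49 (*Slc4a1*), and was 0.054 with *Hba-a1*. Among the other globin genes it was 0.28 with *Hba-a2*, 0.19 with *Hbb-bt* and 0.37 with *Hbq1a*, but 0.72 with the theta chain gene *Hbq1b*. *Klf1* instead varied with other erythroid genes: 14 of the 56 had a correlation above 0.8 with it (25%), against 0.861% of 18811 genes. With *Hba-a1* 2 of the 56 were above 0.8 (3.57%, all genes 0.191%), *Hba-a2* at 0.96 and *Hbb-bt* at 0.83. The points share arrays, RNA and scaling, and these values are a description.

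The genes nearest to *Klf1*, picked after their values were seen, were *Ermap* (a red cell surface protein, within-group correlation 0.96), the transcription factor genes *Tal1* (0.93) and *Gfi1b* (0.92), *Rhd* (0.93), *Epor* (the erythropoietin receptor, 0.91), *Hemgn* (0.90) and *Cpox* (an enzyme of heme synthesis, 0.89). *Gfi1b* read -0.94, -1.88 and -2.02 in control ovaries, -2.56, -1.50 and -3.23 in *Smad4 (Stella)* and -0.85, -2.93 and -1.35 in DKO ovaries. It was thus high on control ovary 1, *Smad4 (Stella)* ovary 2 and DKO ovary 1, the same arrays as *Klf1*, and also on DKO ovary 3. On those first 3 arrays *Hba-a1* was at 8.05, 8.02 and 7.64, near or below its group's mean on control ovary 1 and DKO ovary 1 and above it on *Smad4 (Stella)* ovary 2.

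**Figure D3:**
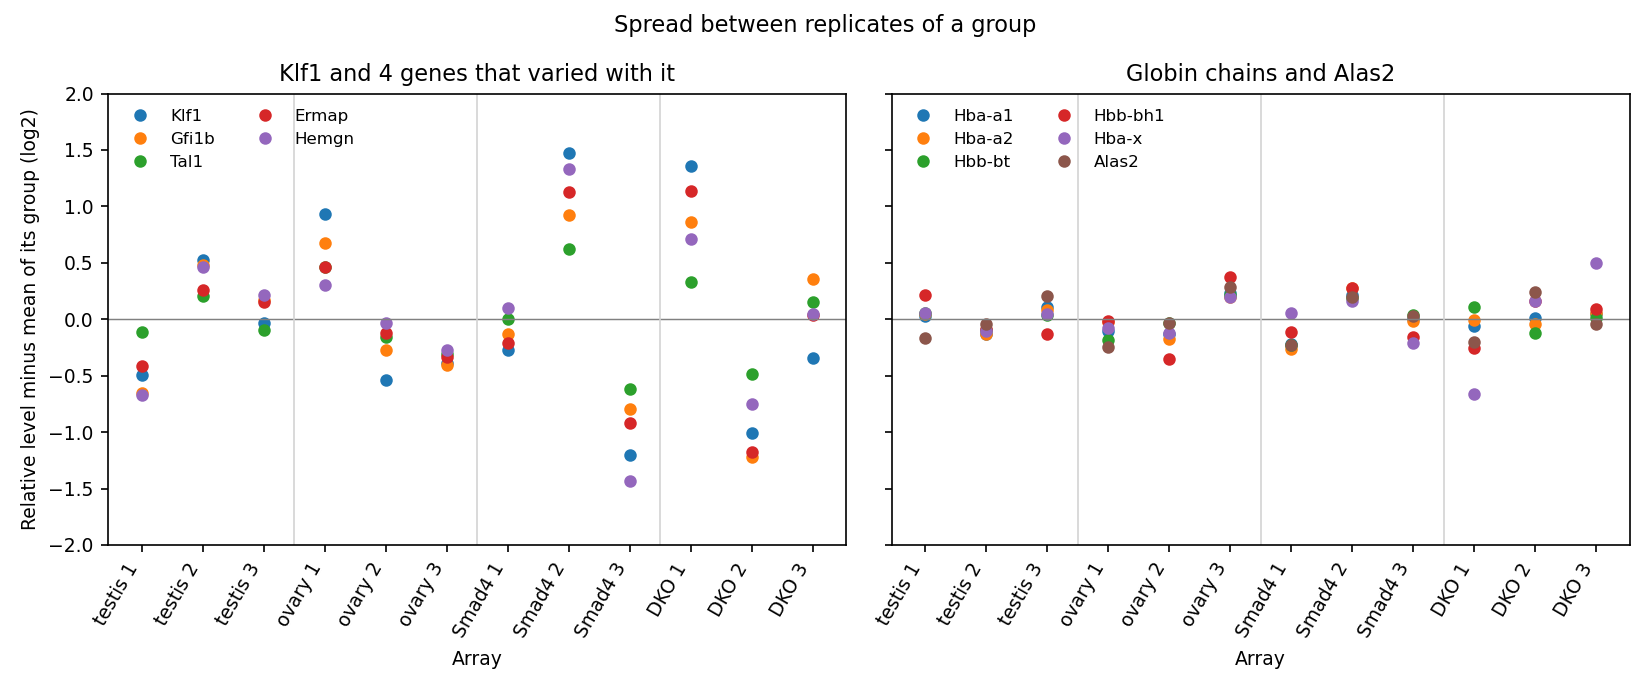
Relative level minus the mean of the array's own group (log2) on the 12 arrays, for *Klf1* and 4 genes picked for varying with it (left) and for globin chains and *Alas2* (right). The left-hand genes lie high together on control ovary 1, *Smad4 (Stella)* ovary 2 and DKO ovary 1, and the right-hand genes move less, with *Hba-x* on DKO ovary 1 the lowest of them.

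**Figure D4:**
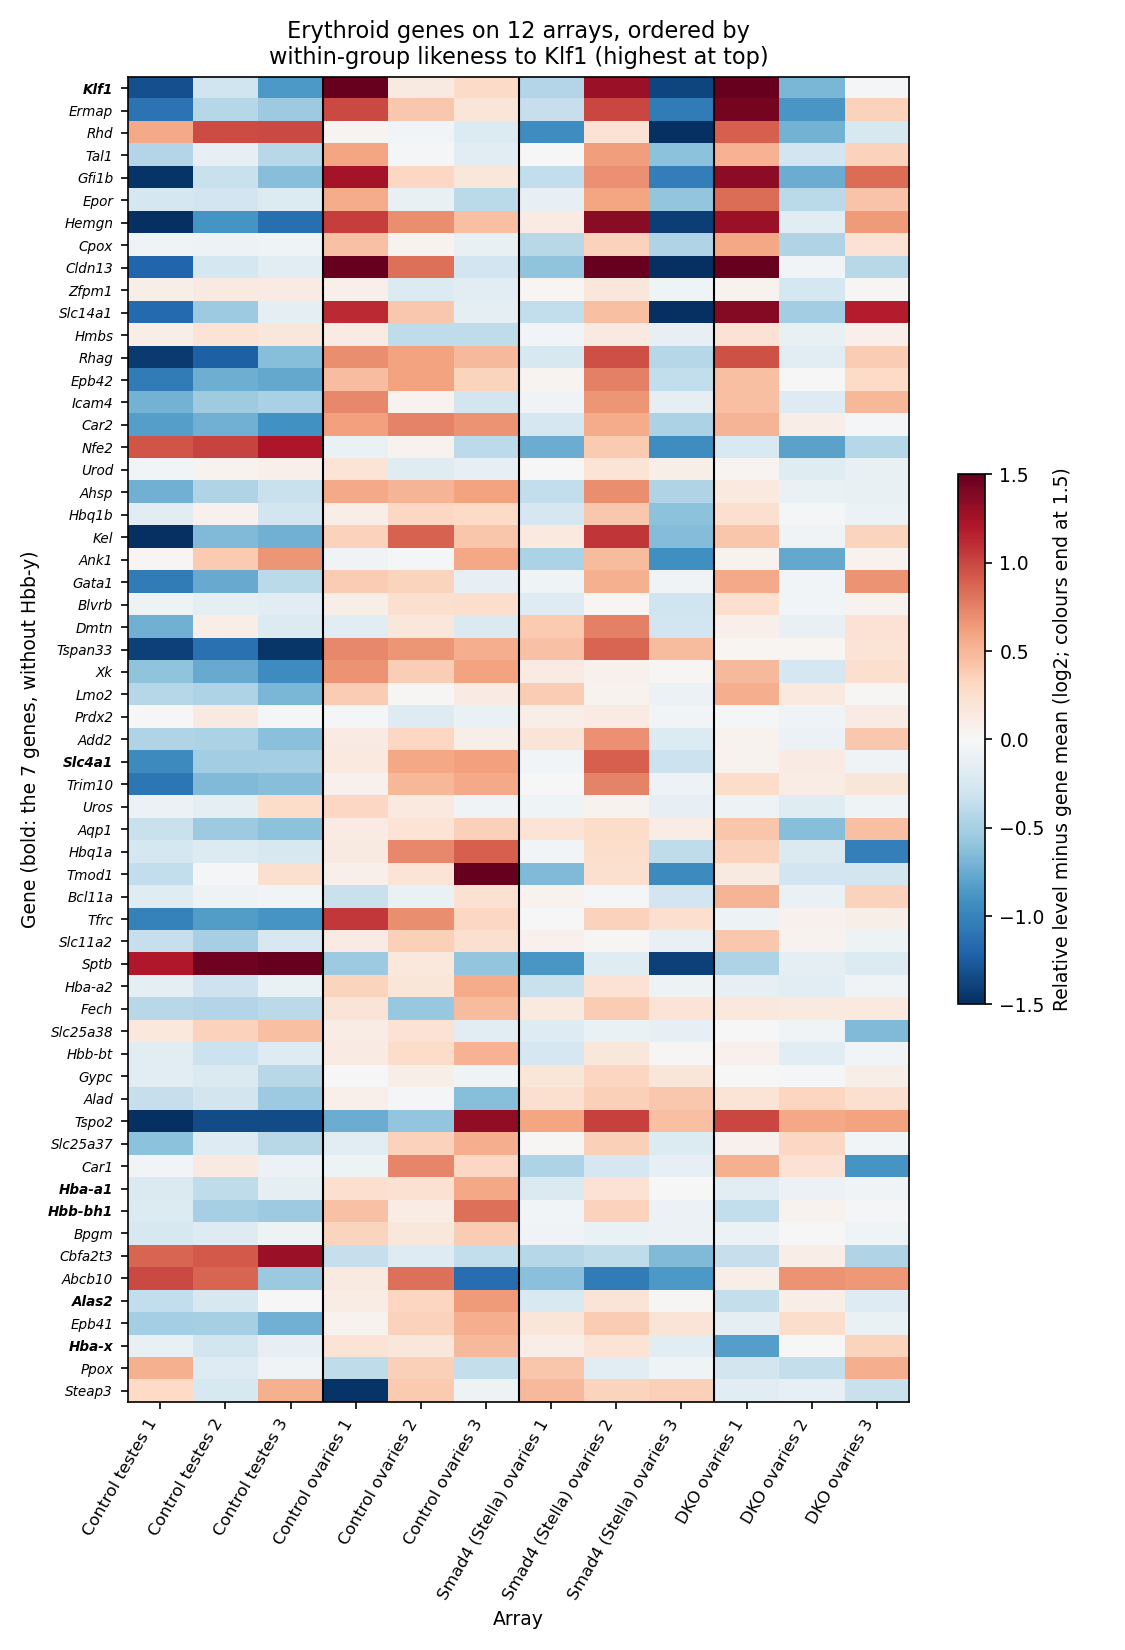
Relative level minus the gene's mean over the 12 arrays (log2, colours end at 1.5) for 6 of the 7 genes (bold) and 53 of the 56 other erythroid genes, in order of within-group correlation with *Klf1*, highest at the top. The 3 testes are low for most of the rows and high for *Nfe2*, *Sptb*, *Cbfa2t3* and *Rhd*, and *Hba-a1*, *Hbb-bh1* and *Hba-x* lie towards the bottom, away from *Klf1*, whereas the globin gene *Hbq1b* lies in the upper part.

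*Hba-a1* and *Alas2* were the closest pair of the 7 after *Hba-a1* and *Hbb-bh1*, with correlations of 0.90 each over 12 arrays (0.76 and 0.71 with group means taken off). The genes outside all lists whose level was most like the mean of the 7, each centred on its own mean, were *Rhox13* (Pearson 0.91, Spearman 0.88 over 12 arrays), *Mcm8* (0.90 and 0.89), *Mplkip* (0.90 and 0.86), *Ndufb5* (0.90 and 0.94) and *Zfp429* (0.89 and 0.90). Without control ovaries 1 and 3, the arrays farthest from the median, the Pearson values were 0.82 to 0.89. *Rhox13* read 2.99 to 3.21 in control ovaries and -1.27 to -0.66 in testes, so part of this likeness is a difference between groups.

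Markers of other cells moved between the groups too. The summed level of 13 macrophage genes, as a multiple of each array's 75th percentile, was 4.16 to 4.55 in testes, 5.03 to 6.33 in control ovaries, 5.36 to 6.04 in *Smad4 (Stella)* and 6.17 to 11.2 in DKO ovaries, where DKO ovary 1 had the 11.2. Such a sum follows the brightest genes. The mean log2 level of the 13 overlapped, at -1.84 to -1.77 in testes and -2.08 to -1.53 in control ovaries. The -2.08 was that of control ovary 2, where *Cx3cr1* read -8.05. In testes 9 of the 13 means were lower than in control ovaries, while *Cd68* was higher by 0.44. The macrophage gene *Adgre1* read 1.82 on DKO ovary 1 and 0.31 and 0.17 on the other DKO ovaries. The sum of 14 endothelial genes was 29.7 to 35.1 in testes, 28.8 to 31.0 in control ovaries, 32.0 to 35.6 in *Smad4 (Stella)* and 28.5 to 32.8 in DKO ovaries. The mean log2 level of the 14 was 0.21 to 0.44 in testes and 0.05 to 0.12 in control ovaries, without overlap. It was 0.19 to 0.45 in *Smad4 (Stella)* and 0.01 to 0.25 in DKO ovaries. In testes 3 of the 14 means were lower than in control ovaries, with a median difference of 0.34 against 0.017 over all genes. There 1 of the 14 was called lower (all genes 16.8%) and 1 higher (17.2%), and 9 had an unadjusted limma p below 0.05. None was called by limma or by the methods' test in *Smad4 (Stella)* (3 at an unadjusted p below 0.05) or DKO ovaries (0) against control ovaries. Of the 13 macrophage genes 1 was called lower in testes by limma (all genes 16.8%), *C1qc* at -0.62 (SE 0.11). *Cd68* was called higher in DKO than in control ovaries, by 0.72 (SE 0.19), and than in *Smad4 (Stella)* ovaries, by 0.86 (SE 0.19). It was 1 of the 13 in each comparison, where 1261 and 827 of the 18844 genes were called higher. *Pecam1*, *Cdh5*, *Csf1r*, *Adgre1* and *Gata1* were above background on all 12 arrays. The summed level of the 56 erythroid genes was 385 to 419 in testes, 516 to 620 in control ovaries, 395 to 531 in *Smad4 (Stella)* and 419 to 461 in DKO ovaries. This sum is mostly that of the 5 other globin genes, 320 of 413 on testis 1. The mean log2 level of the 56, in which each gene counts alike, was -1.31 to -1.14 in testes and -0.72 to -0.65 in control ovaries, and the DKO ovaries, at -1.02 to -0.58, overlapped the control ovaries. The sum of the 9 transcription factor genes was 13.1 to 14.0 in testes and at most 13.5 in control ovaries, so these groups overlapped. This sum is mostly that of *Zfpm1*, at 3.33 to 3.38 in testes and 3.04 to 3.32 in control ovaries. The mean log2 level of the 9 overlapped too, at -1.46 to -1.22 in testes and -1.37 to -0.97 in control ovaries. The part of the other cells in the differences of the 7 genes was not tested.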

How the data were processed

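Whole E14.5 gonads (3 samples in each of 4 groups, taken from the labels) were labelled with Cy3 and hybridised to 12 single-colour Agilent mouse arrays of 45018 spots. Per the file headers, the authors extracted intensity values with Agilent Feature Extraction 11.0.1.1, whose processed signal is background-corrected. The deposited table of the whole series holds these same intensity values, rounded to 3 significant digits and not scaled further. Here log2 processed signals were scaled to each array's 75th percentile, outlier spots were left out and probes of a gene were averaged. The filter on dim probes required a signal well above background throughout at least 1 group (27311 probes, 18844 genes). Symbols came from RefSeq accessions for 27050 probes and otherwise from the array.

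The 4 comparisons came from a single limma fit (version 3.58.1, R 4.3.3) over the 12 arrays, with no block. A call needed a Benjamini-Hochberg adjusted p below 0.05 and a 1.5-fold change. The 7 genes and all lists were chosen with earlier results of these data known, so calls of the 7 are printed as a description, with no p, and the lists have no p of their own. Genes named are the 7, every called gene of the 5 erythroid lists and otherwise up to 3 of each list by level, fixed cell markers, and 5 genes by likeness to the 7. Some called genes of these lists stay in the counts and are not reported here. The fit was tested on simulated data of 18812 genes for testes against control ovaries, where it recovered 94% of 50 genes put 2 log2 units lower and 54% of 50 put 1 unit lower. It made 7 false calls. Few genes were changed there, with independent noise and no slide effect, so these shares do not give the sensitivity of the real comparison. The methods give biological triplicates, and p-values set the difference between group means against the spread between samples within groups. The number of arrays limits the precision. The slides held testes 1 to 3 with control ovary 1, control ovaries 2 and 3 with DKO ovaries 1 and 2, and *Smad4 (Stella)* ovaries 1 to 3 with DKO ovary 3, all scanned on 1 day. Alternatives were other scaling and background correction, probe choice, no filter, slide and replicate blocks, the compared groups alone, a 2-fold threshold, the t-test of the methods, and each array left out in turn.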

Additional observations from a re-analysis of the deposited data

How the results depend on the processing

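All 7 genes kept lower means in testes and in DKO ovaries than in control ovaries under each scaling and background correction. In *Smad4 (Stella)* ovaries 2 of the 7 did so with the deposited values left unscaled, where their median difference turned to 0.068 and the median of all genes moved to 0.40, above all 7. Unscaled, the median of the 7 was -0.65 for testes and -0.39 for DKO against *Smad4 (Stella)* ovaries. With outlier spots kept, an alternative chosen after seeing the data, it was -0.60 for testes. Of the 56 other erythroid genes, 24 were called in testes as reported, 15 after normexp correction and 15 with the slide as a block. The 2 called in DKO ovaries became 0 unscaled, after normexp correction, with the slide as a block and at a 2-fold threshold. Calls over all genes fell too, in testes from 3237 higher and 3164 lower to 2091 and 1906 after normexp correction. For DKO against control ovaries they went from 1261 higher and 1506 lower to 551 and 448 unscaled and to 794 and 864 after normexp correction. The calls over all genes with the slide as a block are not given here. Fitting the compared groups alone gave 2 calls between DKO and *Smad4 (Stella)* ovaries, *Abcb10* higher and *Steap3* lower, and called *Ahsp* in place of *Tfrc* in DKO against control ovaries, as did the adjusted t-test of the methods. Leaving out each array in turn gave 20 to 25 calls in testes, 0 to 2 in *Smad4 (Stella)* ovaries (2 without *Smad4 (Stella)* ovary 2 and 1 without control ovary 3), 1 to 4 in DKO ovaries (1 without control ovary 2 and 4 without control ovary 1 or 3) and 0 between the mutants. The medians of the 7 ran from -0.89 to -0.69, from -0.53 to -0.22, from -0.55 to -0.36 and from -0.26 to -0.04. The cause of these changes was not tested. With the replicate block, 24, 0, 2 and 0 genes were called and the medians were -0.87, -0.36, -0.46 and -0.14. In no comparison did every same-numbered pair correlate above 0.1 (range -0.18 to 0.15), so the numbers were not treated as pairs in the main fit. With deviations from means of 3 arrays, this check cannot exclude that some samples shared a litter or handling.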

Other observations

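Genes of megakaryocytes and platelets, another lineage that the circulation brings into the gonad, were examined as 9 genes that passed the filter. The genes named here other than *Pf4* were picked after their values were seen. In *Smad4 (Stella)* ovaries the means of all 9 were lower than in control ovaries, with a median of -0.97 against -0.025 over all genes, and 2 of the 9 were called lower (all genes 0.138%). *Gp6*, the platelet collagen receptor, read -5.29, -5.39 and -5.50 in *Smad4 (Stella)* and -4.46, -4.40 and -4.31 in control ovaries, a difference of -1.01 (SE 0.09, limma adjusted p = 0.0089). *Gp9*, part of the von Willebrand factor receptor, read -3.22, -2.97 and -3.26 against -2.27, -2.12 and -2.15, a difference of -0.97 (SE 0.13, limma adjusted p = 0.026). No array of either gene overlapped between those groups. *Gp6* was dim, at -5.50 to -4.31 over the 12 arrays, although well above background on all of them. The 75th percentile used for scaling was 704 to 997 intensity units in *Smad4 (Stella)* and 476 to 754 in control ovaries. These groups share no slide, so slide and genotype cannot be told apart for these values.

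In DKO ovaries the means of all 9 were also below control ovaries, with a median of -0.39 and no gene called by limma, where 7.99% of all genes were called lower and 4 of the 9 had an unadjusted p below 0.05. With the per-gene test of the methods, adjusted the same way, none of the 9 was called in either mutant group against control ovaries. *Treml1* was higher in DKO than in *Smad4 (Stella)* ovaries by 0.93 (SE 0.21, limma adjusted p = 0.017) and by 1.02 within the slide they share. In testes *Pf4* (platelet factor 4), *Gp9* and *Clec1b* were called lower than in control ovaries, 3 of the 9 (all genes 16.8%), with differences of -0.75 (SE 0.19), -0.77 (SE 0.13) and -0.87 (SE 0.18). The means of 6 of the 9 were lower in testes, with a median of -0.65 against 0.017 over all genes. *Itga2b*, *Treml1* and *Gp1bb* went the other way, by 0.016, 0.094 and 0.13. *Pf4* read 0.00, 0.01 and 0.19 in testes and 0.80, 0.94 and 0.71 in control ovaries.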
